A study of Mus musculus with 7 samples.

Results

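The genes described here are those of the fibroblast growth factor (FGF) receptors and of the feedback on the kinase ERK: Fgf4, Fgfr1, Fgfr2, Spry1, Spry2, Spry4, Spred1, Dusp4 and Dusp6. They were chosen by name, as the probe sets whose platform gene symbol was exactly one of these symbols, which gave 9 genes with 124 probe sets of the 1201338 on the array. By RefSeq, Fgf4 and Fgfr2 lie on chromosome 7, Fgfr1 and Dusp4 on chromosome 8, Spry1 on 3, Spry2 on 14, Spry4 on 18, Spred1 on 2 and Dusp6 on 10. RNA came from J-1 cells, a line of mouse embryonic stem cells, all infected with lentiviruses that carried a short hairpin RNA and grown in full medium. Mettl3 hairpin 1 was used in 2 samples, Mettl3 hairpin 2 in 2 samples and a control hairpin against luciferase, a gene that mouse cells lack, in 3 samples. Mettl3 encodes the catalytic subunit of the enzyme that places N6-methyladenosine on RNA. RNA of every sample was read on 1 Affymetrix mouse exon array, on which a gene is covered by many short probe sets. All 3 groups share the infection, and neither the time after infection nor a selection step is given in the labels used here.

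FGF4 is secreted by mouse embryonic stem cells and acts on FGF receptors of the same cells. The receptors are tyrosine kinases that recruit adaptors and activate RAS, RAF, MEK and ERK, a cascade known to prime these cells for differentiation. ERK activity raises the expression of its own inhibitors, among them Sprouty and Spred proteins, which act on RAS and RAF, and dual-specificity phosphatases, which remove phosphate from ERK and related kinases. In the mouse blastocyst, FGFR2 is known from trophectoderm and primitive endoderm, and FGFR1 from the inner cell mass as a whole.

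ETS proteins are transcription factors through which ERK acts on many genes, and their binding sites share the core GGAA. The 250 bases before the RefSeq start of Fgfr2 and Dusp6 are shown because these are the genes whose RNA passed a test below. Both are on GRCm38.p6 and are credited to RefSeq. Fgfr2 lies at chr7:130266809-130267058 on the minus strand and Dusp6 at chr10:99262981-99263230 on the plus strand. Capitals mark GGAA or, for the other strand, TTCC.
Fgfr2: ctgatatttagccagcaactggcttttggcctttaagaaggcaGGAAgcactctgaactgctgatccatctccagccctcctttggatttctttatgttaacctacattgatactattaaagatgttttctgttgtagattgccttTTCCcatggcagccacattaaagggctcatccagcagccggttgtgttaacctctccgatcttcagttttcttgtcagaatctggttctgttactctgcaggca
Dusp6: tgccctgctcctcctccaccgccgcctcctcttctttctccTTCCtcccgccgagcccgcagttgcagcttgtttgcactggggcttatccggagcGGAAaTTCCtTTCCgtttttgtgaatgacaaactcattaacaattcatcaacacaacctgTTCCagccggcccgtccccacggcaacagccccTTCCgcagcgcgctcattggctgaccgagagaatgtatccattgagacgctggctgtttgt
The Fgfr2 window held 2 such cores at a GC content of 44%, and the Dusp6 window held 6 at 56.4%. Entries were matched for 6 of the 9 genes. The other windows held 0 cores in Fgf4, 1 in Spry1, 3 in Spry2 and 4 in Spred1. Among 32851 RefSeq windows of the same length, 93.4% held at least 1 core, with a mean of 2.91 per window. The longer ETS motif CCGGAA, searched on both strands as CCGGAA or TTCCGG, contains the core and was present in 12% of those windows and in none of the 6. A match to these letters is a description of the window, not a binding site.

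A gene value is the median, on each array, of the log2 values of a gene's probe sets with a mean over the 7 arrays above the median of all probe sets (6.02), and at least 3 such probe sets were required. All 9 genes passed among 16353 genes tested. The arrays had nearly equal medians (6.03 to 6.07 over all probe sets). Along the leading axis of a principal component analysis (41.0% of the variance), gene values placed the knockdown arrays at 7.26 to 16.4 and the luciferase arrays at -17.7 to -13.7. On the second axis (21.4%), hairpin 1 replicate 2 (-17.8) and luciferase replicate 3 (-10.4) lay at the negative end. Luciferase replicate 2 (11.5) and hairpin 2 replicate 2 (10.1) lay at the positive end. The pair at the negative end is called set apart below, and leaving it out was not planned beforehand. Whether replicates were separate cultures is not stated in the labels, so p-values cover the spread among these arrays only, part of which may be technical. With 2 or 3 arrays per group, the array number sets the precision. In bulk RNA, a change in the number of cells of a type and a change in RNA per cell cannot be told apart.

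The check of the labels was Mettl3 itself. Its gene value was 8.97 and 8.67 with hairpin 1, 8.71 and 8.66 with hairpin 2, and 10.38, 10.46 and 10.14 with luciferase. All 4 knockdown arrays lay below all 3 luciferase arrays, with log2 fold changes of -1.50 for hairpin 1 (limma adjusted p = 0.000361) and -1.64 for hairpin 2 (limma adjusted p = 0.000424).

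The question asked of the 9 genes was whether their RNA differed between Mettl3 knockdown and control cells. Fgfr2 was higher with both hairpins, by 1.75-fold on average, and Dusp6 was lower with hairpin 2, without a called difference between the hairpins. No other gene of the 9 passed the test in any comparison. Over both hairpins, 1 of the 9 genes rose and 0 fell, where 7.90% of all genes tested were called at a limma adjusted p below 0.05 (5.53% higher, 2.37% lower). The split of all calls depends on the scaling: 904 genes rose and 388 fell, and with each array centred on its median gene value 696 rose and 703 fell (578 and 566 in place of 649 and 315 with hairpin 1, 326 and 256 in place of 443 and 176 with hairpin 2). At an unadjusted p below 0.05 there were 3 of the 9, beside 3958 of the 16353 genes. The median log2 fold change of the 9 was 0.040, beside 0.00045 over all genes. With hairpin 1, 1 rose and 0 fell, where 5.89% of all genes were called (3.97% higher, 1.93% lower). With hairpin 2, 1 rose and 1 fell, where 3.79% of all genes were called (2.71% higher, 1.08% lower). Separation of the arrays alone is common at this group size. With hairpin 1, 4 genes lay wholly above luciferase and 1 wholly below, beside 20.9% and 17.3% of all genes. With hairpin 2, 2 lay above and 2 below, beside 22.9% and 15.4% of all genes. Both hairpin comparisons use the same 3 luciferase arrays, so their values are given side by side and are not independent.

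**Figure D1:**
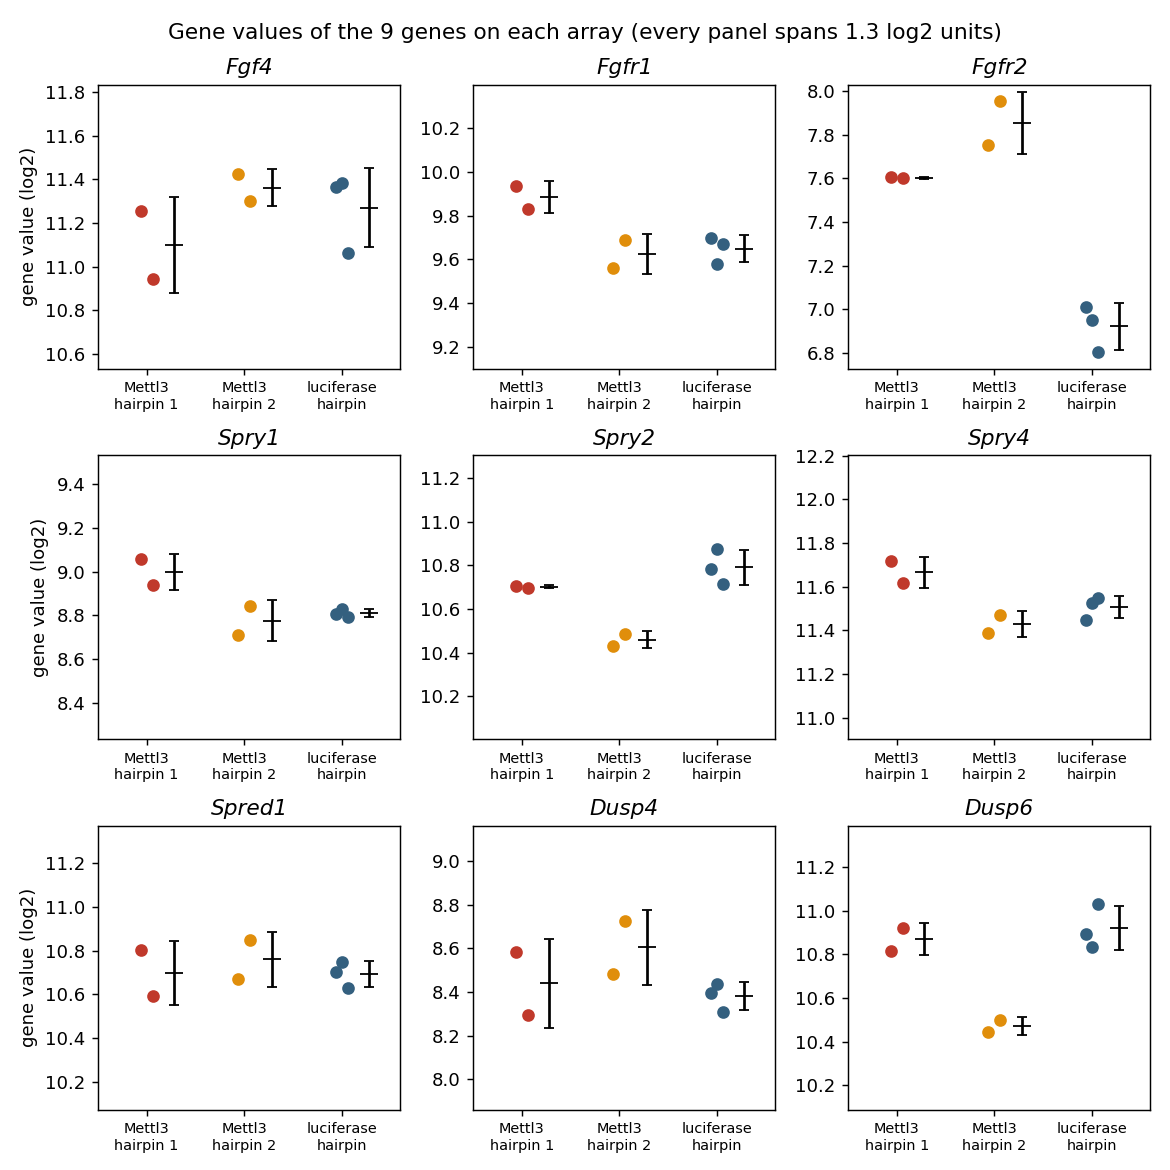
Gene values of the 9 genes on the log2 scale, 1 point per array, for Mettl3 hairpin 1, Mettl3 hairpin 2 and the luciferase hairpin, with the mean and SD as a bar at the right of each group. The 4 knockdown arrays of Fgfr2 sit between 7.60 and 7.95, above all 3 luciferase arrays, while the 2 hairpin 2 arrays of Dusp6 sit at 10.44 and 10.50, below all other arrays.

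Among the 9, Fgf4 encodes the ligand. Its gene value, the median of 9 probe sets, was 11.25 and 10.94 with hairpin 1, 11.42 and 11.30 with hairpin 2, and 11.36, 11.38 and 11.06 with luciferase. Each hairpin overlapped with luciferase, while both hairpin 1 arrays lay below both hairpin 2 arrays. The log2 fold change for both hairpins was -0.040 ± 0.111 (SE; 95% interval -0.29 to 0.21, limma adjusted p = 0.86). Of its 9 probe sets, 8 lay within 0.15 of no difference.

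Fgfr1 encodes the receptor tyrosine kinase that is known as the main FGF receptor of mouse embryonic stem cells. Its gene value rests on 32 probe sets, the most of the 9 genes. It was 9.94 and 9.83 with hairpin 1, 9.56 and 9.69 with hairpin 2, and 9.70, 9.58 and 9.67 with luciferase. The hairpin 1 arrays lay above the others and the hairpin 2 arrays overlapped with luciferase. The log2 fold change was 0.23 with hairpin 1 (95% interval 0.023 to 0.45, limma adjusted p = 0.183) and -0.023 with hairpin 2 (95% interval -0.24 to 0.19, limma adjusted p = 0.927), so neither passed the test. With hairpin 1, 27 of the 32 probe sets were above luciferase on average and 16 lay wholly above it, a separation that held for 20.6% of all kept probe sets with 1 gene symbol. With hairpin 2, 16 were above it and 16 below.

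Fgfr2 encodes a receptor tyrosine kinase whose isoforms bind different FGF ligands. Its gene value was 7.60 and 7.60 with hairpin 1, 7.75 and 7.95 with hairpin 2, and 7.01, 6.95 and 6.80 with luciferase. All 4 knockdown arrays lay above all 3 luciferase arrays, which held in the same direction for 13.4% of all genes. In order of level, hairpin 2 averaged 7.85 ± 0.141 (SD, n = 2), hairpin 1 averaged 7.60 ± 0.0035 (SD, n = 2) and luciferase averaged 6.92 ± 0.107 (SD, n = 3).

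The rise of Fgfr2 over both hairpins was 0.81 ± 0.087 on the log2 scale (SE; 95% interval 0.61 to 1.00, limma adjusted p = 0.000865). It was 0.68 ± 0.104 with hairpin 1 (SE; 95% interval 0.45 to 0.91, limma adjusted p = 0.00621) and 0.93 ± 0.104 with hairpin 2 (SE; 95% interval 0.70 to 1.16, limma adjusted p = 0.00237). The step between the hairpins, -0.25 for hairpin 1 minus hairpin 2, did not pass the test (95% interval -0.51 to 0.0043, limma adjusted p = 0.58). The call over both hairpins held under all 18 alternatives run, at 0.75 to 0.90. Without hairpin 1 replicate 1, the hairpin 1 value was 0.68 with an adjusted p of 0.0508, and without both arrays set apart on the second component, hairpin 1 replicate 2 and luciferase replicate 3, it was 0.62 with an adjusted p of 0.0677.

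**Figure D2:**
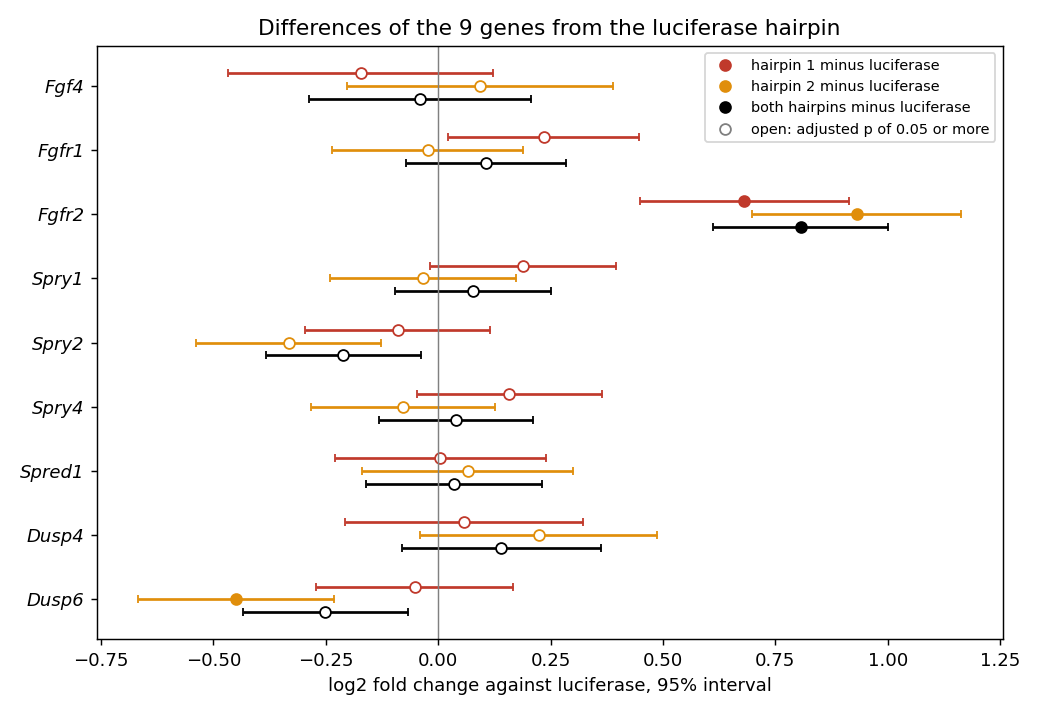
Log2 fold changes against luciferase of the 9 genes for hairpin 1, hairpin 2 and the mean of both, with 95% intervals from limma; filled points have an adjusted p below 0.05. Fgfr2 stands at 0.68, 0.93 and 0.81, Dusp6 is filled only for hairpin 2 at -0.45, and all points of the other 7 genes are open.

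The single probe sets of Fgfr2 show how much of the gene's signal moved. Of 29 probe sets, 24 passed the filter on dim values and 5 did not. The dimmest that passed averaged 6.04 and the brightest that did not averaged 5.99. For both hairpins, 26 of the 29 were above luciferase on average, 24 did not overlap with it, and 12 were higher by at least 1 on the log2 scale. The differences ran from -0.38 to 1.51 with a median of 0.85. Over all probe sets with 1 gene symbol, 9.91% lay wholly above luciferase on the knockdown arrays. A fit of every probe set by itself called 0 of 1201338 (0.00%) for both hairpins (smallest limma adjusted p 0.0745), although 108099 had an unadjusted p below 0.05, among them 25 of the 29 of Fgfr2. Those 25 include probe set 4313415, which did not pass the filter and was lower, at -0.38 over both hairpins. It was at -0.84 with hairpin 1 and 0.074 with hairpin 2.

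Most probe sets of the gene were higher with both hairpins, bright and dim ones among them. Probe set 5152532 read 10.08 and 10.26 with hairpin 1, 10.09 and 10.11 with hairpin 2, and 9.02, 8.71 and 8.83 with luciferase, a difference of 1.28. Probe set 4338696 read 9.16 and 8.65 with hairpin 1, 9.47 and 9.34 with hairpin 2, and 7.72, 8.06 and 7.91 with luciferase, a difference of 1.26. In both, every knockdown array was above every luciferase array. Among dimmer probe sets, 4730001 reached 6.70 and 6.08 with hairpin 1, 7.50 and 7.42 with hairpin 2, and 5.79, 5.59 and 4.86 with luciferase, where the hairpin 2 arrays were the highest and all luciferase values were below the filter.

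The brightest probe set of Fgfr2 did not follow the others. Probe set 4523298 read 10.41 and 10.46 with hairpin 1, 10.54 and 10.51 with hairpin 2, and 10.50, 10.76 and 10.54 with luciferase, a difference of -0.12. Probe set 4744643 read 7.97 and 8.28 with hairpin 1, 8.25 and 8.03 with hairpin 2, and 8.10, 8.24 and 8.24 with luciferase, a difference of -0.059. Probe set 4740962, at a mean of 6.19, differed by 0.048. These 3 are the only kept probe sets of the gene whose knockdown and luciferase arrays overlapped. The filter uses the mean of all arrays, and 5 of the 24 kept probe sets had a luciferase mean below it, so they passed through the knockdown arrays. With no filter the gene value of all 29 probe sets differed by 0.90 over both hairpins (limma adjusted p = 0.00602).

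Unequal movement within a gene was tested with limma's diffSplice, which sets each probe set against the others of its gene. On simulated data diffSplice also called genes without unequal change at a share above the threshold, which limits the calls given here. Fgfr2 was the only one of the 9 genes called, with a limma adjusted p of 6.07e-08 over both hairpins, where 4.97% of all genes were called. It was called with hairpin 1 (limma adjusted p = 0.000827, 4.83% of all genes) and with hairpin 2 (limma adjusted p = 8.76e-07, 2.16% of all genes), and not between the hairpins (0.0550% of all genes). Against the rest of the gene, probe set 4523298 was lower by 1.01 (adjusted p = 0.000959), 4744643 by 0.95 (adjusted p = 0.00255) and 4740962 by 0.84 (adjusted p = 0.0118). With hairpin 2, Fgfr2 probe set 4730001 was higher than the rest of the gene by 1.11 (adjusted p = 0.0072). Fgfr1 probe set 5295666, dim at a mean of 6.50, was lower than the rest of its gene by 0.56 with hairpin 2 (adjusted p = 0.0402). Fgfr1 as a whole was not called. The places of these probe sets in the gene were not analysed here, and whether the signal at 4523298 comes from Fgfr2 transcripts was not tested.

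**Figure D3:**
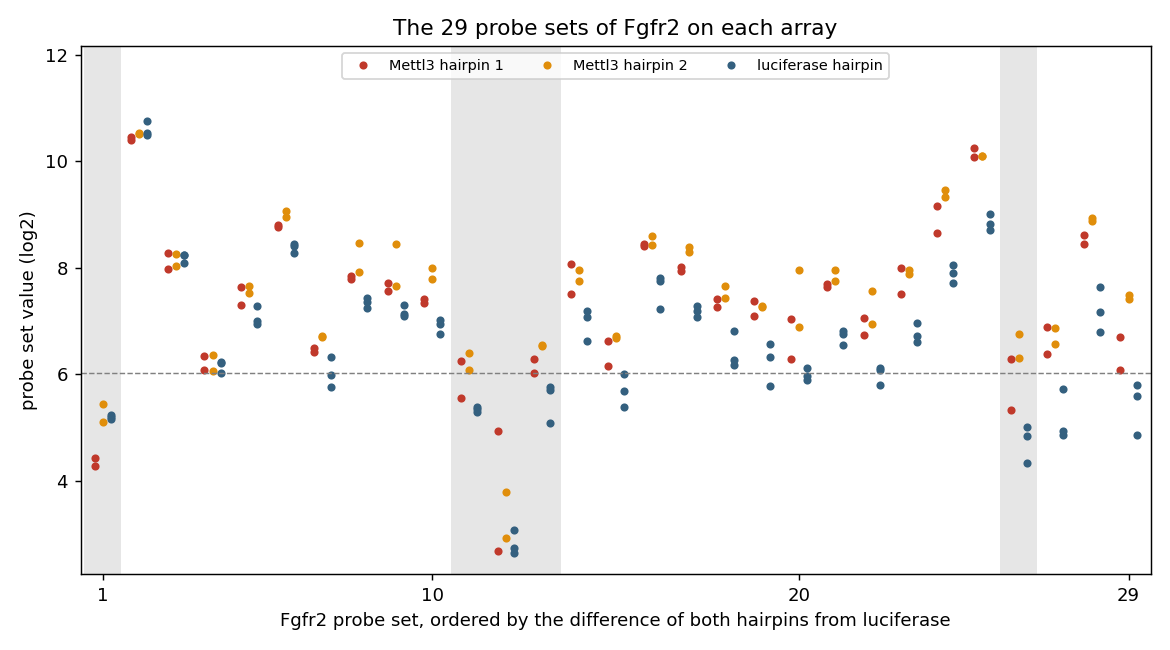
Log2 values of the 29 Fgfr2 probe sets on every array, ordered by the difference of both hairpins from luciferase; the dashed line is the filter at 6.02 and grey bands mark the 5 probe sets that did not pass it. The knockdown points lie above the luciferase points in 24 probe sets, and the bright probe set near 10.5 at the left does not separate.

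The Sprouty genes encode membrane-linked inhibitors of receptor tyrosine kinase signalling. Spry1, with 11 probe sets, was at 9.06 and 8.94 with hairpin 1, 8.71 and 8.84 with hairpin 2, and 8.81, 8.83 and 8.79 with luciferase. Its hairpin 1 arrays lay above luciferase and its hairpin 2 arrays overlapped with it, and the log2 fold change over both was 0.077 ± 0.078 (SE, limma adjusted p = 0.582). Spry4, with 5 probe sets, was at 11.72 and 11.62 with hairpin 1, 11.39 and 11.47 with hairpin 2, and 11.45, 11.52 and 11.55 with luciferase. The hairpin 1 arrays were again the highest, and the log2 fold change over both was 0.040 ± 0.077 (SE, limma adjusted p = 0.79).

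Spry2, with 4 probe sets, was at 10.71 and 10.70 with hairpin 1, 10.43 and 10.49 with hairpin 2, and 10.78, 10.88 and 10.71 with luciferase. All 4 knockdown arrays lay below the luciferase arrays, with hairpin 1 replicate 1 only just below luciferase replicate 3, and such a separation held downward for 8.40% of all genes. The log2 fold change was -0.33 ± 0.092 with hairpin 2 (SE; 95% interval -0.54 to -0.13, limma adjusted p = 0.0851) and -0.090 ± 0.092 with hairpin 1 (SE; 95% interval -0.30 to 0.12, limma adjusted p = 0.617). Neither passed the test. With hairpin 2, all 4 probe sets were below luciferase on average (-0.47 to -0.16). The hairpin 2 value stayed between -0.39 and -0.29 under 19 alternatives and was called in 6 of them, among them arrays centred on their median gene value.

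Spred1 encodes a Sprouty-related inhibitor that brings neurofibromin to RAS. Its gene value, from 18 of 19 probe sets, was 10.80 and 10.59 with hairpin 1, 10.67 and 10.85 with hairpin 2, and 10.70, 10.75 and 10.63 with luciferase. The groups overlapped, and the log2 fold change over both was 0.035 ± 0.088 (SE; 95% interval -0.16 to 0.23, limma adjusted p = 0.844).

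Dusp4 encodes a nuclear phosphatase of ERK and related kinases. It was at 8.58 and 8.29 with hairpin 1, 8.48 and 8.73 with hairpin 2, and 8.40, 8.44 and 8.31 with luciferase. The hairpin 2 arrays were above luciferase, and the hairpin 1 arrays lay on either side of it. Of the 9 single probe sets, 4 were above luciferase on average with hairpin 2 and 5 below. The log2 fold change over both was 0.14 ± 0.099 (SE; 95% interval -0.081 to 0.36, limma adjusted p = 0.42).

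Dusp6 encodes a cytoplasmic phosphatase selective for ERK and is widely read as a transcript that follows ERK activity. Its 6 probe sets gave 10.82 and 10.92 with hairpin 1, 10.44 and 10.50 with hairpin 2, and 10.90, 10.83 and 11.03 with luciferase. The hairpin 2 arrays were the lowest, and the hairpin 1 arrays overlapped with luciferase. With hairpin 2, Dusp6 fell by 0.45 ± 0.098 on the log2 scale (SE; 95% interval -0.67 to -0.23, limma adjusted p = 0.0365), which is 1.37-fold. With hairpin 1 the log2 fold change was -0.052 ± 0.098 (SE; 95% interval -0.27 to 0.17, limma adjusted p = 0.804).

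The fall of Dusp6 with hairpin 2 was seen in each of its probe sets. All 6 were wholly below luciferase on the hairpin 2 arrays (-0.74 to -0.33), and such a separation held for 12.1% of all probe sets with 1 symbol. With hairpin 1 the same probe sets ran from -0.12 to 0.22. Probe set 5519227 read 9.29 and 9.35 with hairpin 1, 8.51 and 8.68 with hairpin 2, and 9.33, 9.29 and 9.39 with luciferase, so only the hairpin 2 arrays stood apart. Probe sets of a gene read the same RNA samples and are not replicates. The gene's call with hairpin 2 held under 9 of 19 alternatives, at values of -0.51 to -0.39. It was lost without luciferase replicate 1, without luciferase replicate 3 and without either hairpin 2 array (adjusted p of 0.0923 to 0.199).

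**Figure D4:**
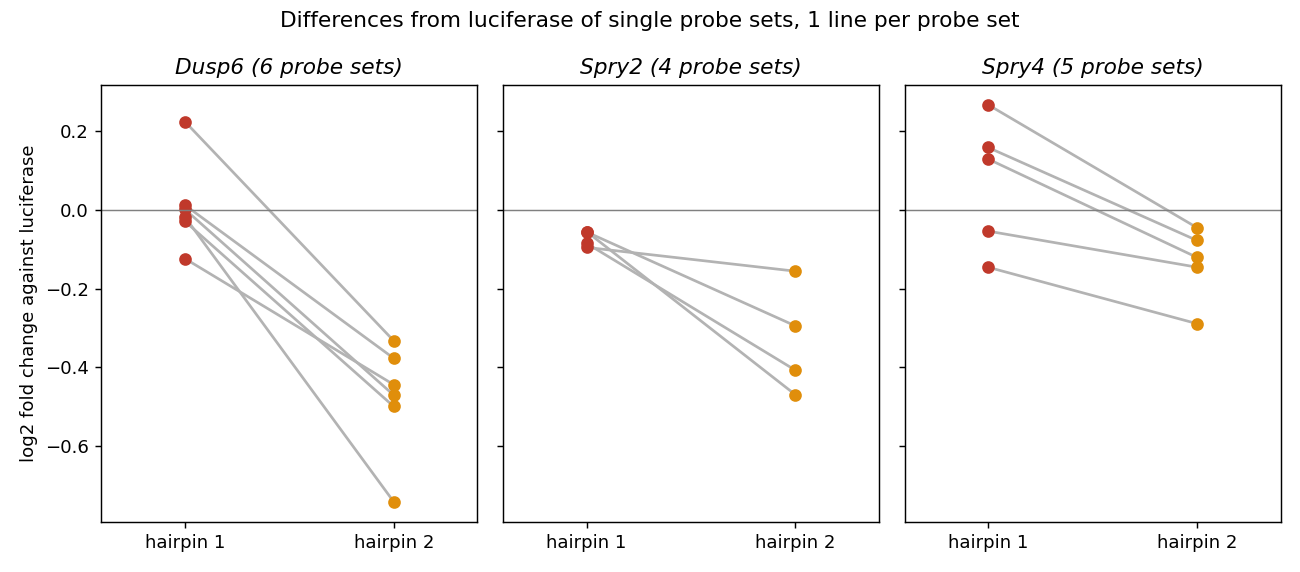
Log2 fold changes against luciferase of the single probe sets of Dusp6, Spry2 and Spry4, with a line joining the hairpin 1 and hairpin 2 values of each probe set. The Dusp6 probe sets lie at -0.12 to 0.22 with hairpin 1 and -0.74 to -0.33 with hairpin 2; the 3 genes were drawn after their values had been seen.

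The direct comparison of the hairpins called none of the 9 genes with limma, where 0.104% of all genes were called. At an unadjusted p below 0.05 there were 4 of the 9 (Fgfr1, Spry2, Spry4 and Dusp6) and 1435 of the 16353 genes. Dusp6 differed most, at 0.40 ± 0.107 for hairpin 1 minus hairpin 2 (SE; 95% interval 0.16 to 0.64, limma adjusted p = 0.305). Fgfr1 differed by 0.26 (95% interval 0.026 to 0.49, limma adjusted p = 0.505), Spry2 by 0.24 (95% interval 0.017 to 0.47, limma adjusted p = 0.53) and Spry4 by 0.24 (95% interval 0.011 to 0.46, limma adjusted p = 0.543). The median of the 9 was 0.22, beside -0.017 over all genes. On the arrays, 5 of the 9 lay wholly higher with hairpin 1 than with hairpin 2 and 2 wholly lower, beside 16.8% and 22.2% of all genes. That Dusp6 passed with hairpin 2 and not with hairpin 1 is therefore not shown to be a difference between the hairpins.

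Other genes of the pathway were taken from 6 lists with 55 genes, of which 51 were tested. Over both hairpins 4 rose and 2 fell, with a median log2 fold change of 0.074. With hairpin 1, 4 rose and 2 fell, and with hairpin 2, 2 rose and 1 fell. These counts stand beside 7.90%, 5.89% and 3.79% of all genes called in either direction over both hairpins, with hairpin 1 and with hairpin 2.

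Among 9 further genes of the FGF family, 2 rose and 0 fell (list median 0.074). Fgf5, a marker of the epiblast after implantation, was at 7.37 and 7.38 with hairpin 1, 7.31 and 7.45 with hairpin 2, and 6.91, 6.76 and 7.07 with luciferase, and all knockdown arrays were above luciferase. Its log2 fold change was 0.46 (limma adjusted p = 0.0146), and with brighter probe sets alone (the stricter filter) it was -0.076, so the direction rests on dim probe sets. Fgf15, an endocrine FGF, rose by 0.34 (limma adjusted p = 0.0398), a call lost on leaving out any 1 of 6 of the 7 arrays.

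Of 5 further receptors and co-receptors, none was called with limma, 1 had an unadjusted p below 0.05, and the list median was -0.14. The largest differences were those of Fgfrl1, a receptor without a kinase domain, at 0.24 (limma adjusted p = 0.114), and the co-receptor Klb at -0.20 (limma adjusted p = 0.449; 0.28 with no filter on dim probe sets).

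Of 10 adaptors and RAS regulators, 1 rose and 0 fell (list median 0.11). Sos2 encodes an exchange factor that loads RAS with GTP. It was at 8.75 and 8.60 with hairpin 1, 8.54 and 8.62 with hairpin 2, and 8.14, 8.14 and 8.10 with luciferase. All 4 knockdown arrays were above luciferase, and the rise was 0.50 on the log2 scale (limma adjusted p = 0.00459), a call kept on leaving out each array in turn. In the kinase cascade none of 10 tested genes was called with limma, 1 had an unadjusted p below 0.05, and the list median was 0.040. The largest differences there were those of the RAF kinase gene Braf, at 0.29 (limma adjusted p = 0.0511), and the MEK gene Map2k1, at 0.19 (limma adjusted p = 0.273).

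Of 8 other feedback inhibitors tested, 1 rose and 0 fell (list median 0.12). Dusp7, which encodes another cytoplasmic ERK phosphatase, rose by 0.32 (limma adjusted p = 0.0483), and the call was lost on leaving out any 1 array. Of 9 transcription factor genes that respond to ERK, 0 rose and 2 fell over both hairpins (list median -0.067). Of these 9, 4 had a positive difference. With hairpin 1, 1 rose and 2 fell, and with hairpin 2, 0 rose and 1 fell. The rise with hairpin 1 was that of Egr1, at 0.62 (limma adjusted p = 0.0436). With hairpin 2, Egr1 was at 0.10 (limma adjusted p = 0.764). Etv4, an ETS factor gene, was at 9.58 and 9.59 with hairpin 1, 9.53 and 9.63 with hairpin 2, and 9.96, 10.04 and 10.03 with luciferase. Its 4 knockdown arrays were all below luciferase, and it fell by 0.43 (limma adjusted p = 0.00858), a call kept on leaving out each array in turn. Myc fell by 0.43 (limma adjusted p = 0.0115), a call lost without luciferase replicate 1 and without hairpin 2 replicate 2 (highest adjusted p 0.0624).

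**Figure D5:**
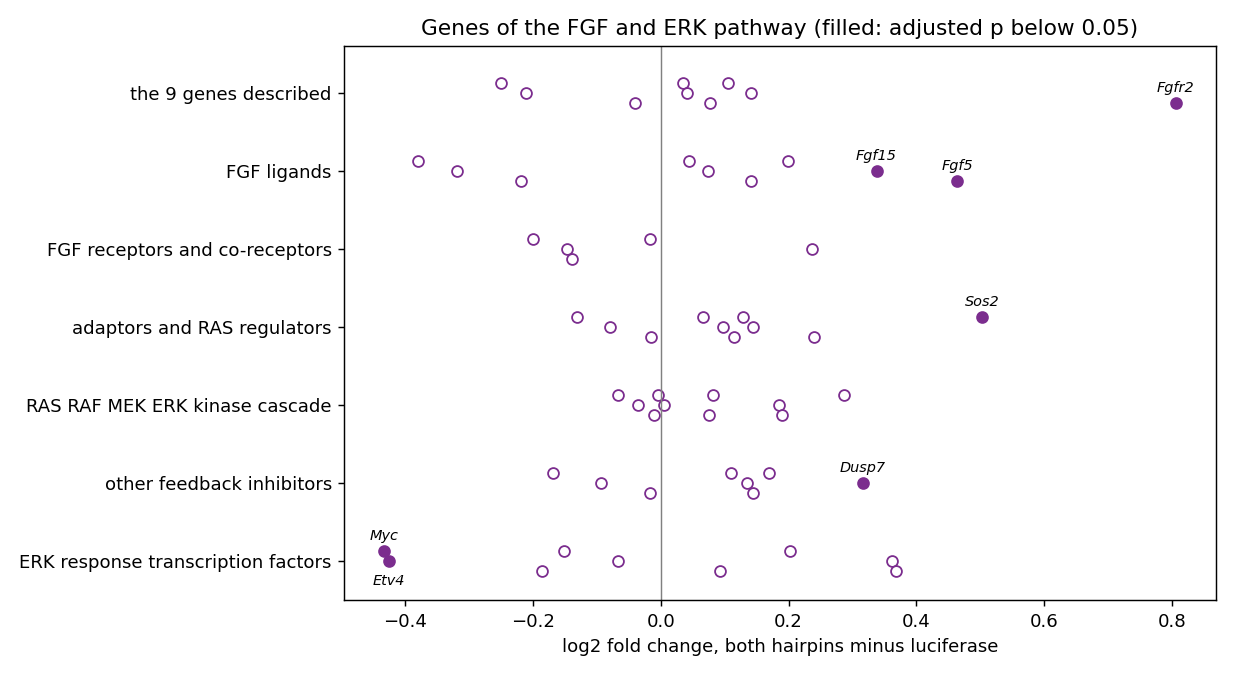
Log2 fold changes of both hairpins against luciferase for the 9 genes and for 51 further genes of the FGF and ERK pathway in 6 lists, 1 point per gene; filled points have a limma adjusted p below 0.05. Fgfr2 is the rightmost point at 0.81, and the filled points of the lists lie between -0.43 and 0.50.

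Markers of cell types that the cultures could hold were set beside the change of Fgfr2. Their counts at an unadjusted p below 0.05 stand beside 3958 of all 16353 genes. Their limma calls over both hairpins stand beside 5.53% of all genes higher and 2.37% lower. Of 8 markers of embryonic stem cells, none was called with limma over both hairpins and 1 had an unadjusted p below 0.05. Their mean level was 11.92 to 12.04 with hairpin 1, 12.03 to 12.06 with hairpin 2 and 12.01 to 12.12 with luciferase, far above the array medians on every array. Of 7 tested fibroblast markers none was called and 1 had an unadjusted p below 0.05 (mean level 7.32 to 7.50 with hairpin 1, 7.27 to 7.29 with hairpin 2, 7.40 to 7.49 with luciferase). Of 8 primitive endoderm markers none was called and 3 had an unadjusted p below 0.05 (7.43 to 7.46 with hairpin 1, 7.56 to 7.58 with hairpin 2, 7.58 to 7.60 with luciferase). Of 5 neural markers, 1 rose and 1 fell, and 4 had an unadjusted p below 0.05 (list median 0.27). The mean level of the 5 was 8.02 to 8.04 with hairpin 1, 7.99 to 8.05 with hairpin 2 and 7.87 to 7.96 with luciferase. Nes rose by 0.46 (limma adjusted p = 0.0167) and Sox1 fell by 0.39 (limma adjusted p = 0.0488). Tubb3 at 0.29, Pax6 at 0.27 and Zic1 at -0.074 were not called. Nes was at -0.15 under the stricter filter, and its call was lost on leaving out any 1 of 4 of the 7 arrays, that of Sox1 on leaving out any 1 of 6.

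Genes of trophectoderm and simple epithelium moved with Fgfr2 in part. Of 9 such genes, chosen after results were known, 3 keratin genes rose and 0 fell, beside 5.53% and 2.37% of all genes. The mean level over all 9, the keratins among them, was 8.09 to 8.10 with hairpin 1, 7.96 to 7.97 with hairpin 2 and 7.77 to 7.84 with luciferase. Krt18 was at 9.65 and 9.68 with hairpin 1, 8.95 and 8.82 with hairpin 2, and 8.34, 8.27 and 8.12 with luciferase, with a rise of 1.03 (limma adjusted p = 0.000233). It was highest with hairpin 1, and the hairpins differed by 0.78 (limma adjusted p = 0.0438). Fgfr2 was highest with hairpin 2, but its step between the hairpins was not called (limma adjusted p = 0.58). Krt8 rose by 0.81 (limma adjusted p = 0.000711) and Krt19 by 0.43 (limma adjusted p = 0.0389), of which the Krt19 call was lost on leaving out any 1 of 5 of the 7 arrays (highest adjusted p 0.13). With hairpin 2 alone, Krt19 was at 0.28 (limma adjusted p = 0.275), and its arrays overlapped with luciferase. The transcription factors that define trophectoderm were not called, with Cdx2 at -0.066, Eomes at -0.15, Elf5 at 0.14 and Gata3 at -0.10. The part of other cell types in the rise of Fgfr2 was not tested.

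The genes whose values were most like those of Fgfr2 over the 7 arrays were Arl2 (Pearson correlation 0.994), which encodes a small GTPase, Kcnrg (0.991), named as a potassium channel regulator, and B2m (0.988), which encodes the light chain of MHC class I. The 7 points of each fall into knockdown and luciferase arrays, so these values are a description. B2m, as an example, was at 9.85 and 9.82 with hairpin 1, 9.94 and 10.12 with hairpin 2, and 9.28, 9.23 and 9.27 with luciferase.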

How the data were processed

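Probe set values were deposited by the authors on the log2 scale; RMA and R 2.11.1 are named per the submitters' processing notes, and which RMA package and probe set definition were used is not given in the sources used here. The method equalises the value distributions of arrays, which would hide a change shared by most RNAs. Detection p-values and scan dates were not analysed here, so batches were not examined. In the platform annotation 311384 probe sets had 1 gene symbol, 6385 several and 883569 none. Among those with 1 symbol, 45560 probe sets had the symbol updated through RefSeq (GRCm38.p6). Chromosomes and promoters are from RefSeq.

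From the log2 values, gene medians were fitted in limma 3.58.1 (R 4.3.3, lmFit and eBayes) with a mean for each group and 4 residual degrees of freedom, adjusted by Benjamini-Hochberg over 16353 genes. The contrasts were both hairpins, hairpin 1 and hairpin 2, each minus luciferase, and hairpin 1 minus hairpin 2. The fit and diffSplice were tested on simulated data, where diffSplice also called genes without unequal change at a share above the threshold. All 9 genes are named. In each pathway list, up to 4 called genes of greatest change are named, or, with none called, those 2 that differed most, and for likeness the 3 most alike. Called markers are named as well, with some that were not called. Egr1, called with hairpin 1 alone, is also named. The genes and lists were chosen with earlier results of these data known. The main fit did not pair arrays by replicate number. The alternatives were other filters, gene summaries, normalizations, spread models and blocks, single-group fits and leaving out arrays.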

Additional observations from a re-analysis of the deposited data

How the results depend on the processing

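Fgfr2 was called over both hairpins under all 18 alternatives, and with hairpin 2 under all 19 (0.83 to 1.06); with hairpin 1 it was called under 17 of 19. Over both hairpins the number of the 9 genes called, 1, was 2 with the stricter filter (mean above the 75th percentile of all probe sets), 2 with arrays centred on their median gene value and 2 with trended and robust spreads, and 3 with the mean of probe sets and 3 with median polish. With hairpin 1 the count of 1 was 0 without both arrays set apart on the second component, and ranged from 0 to 1 on leaving out single arrays. With hairpin 2 the count of 2 was 1 with no filter, with a minimum of 1 probe set and without both those arrays, and ranged from 1 to 2 on leaving out single arrays. It was 3, with Spry2 added to Fgfr2 and Dusp6, under the stricter filter, the mean of probe sets, median polish, centred arrays and trended and robust spreads, and with quantile normalization Spry2 took the place of Dusp6. Between the hairpins it was 0 throughout. Unequal movement of probe sets was called for Fgfr2 alone with no filter, with the stricter filter and with the block. With the replicate number as a block the count with hairpin 2 was 1, and with the block crossed in hairpin 1, added after seeing the data, it was also 1. Same-numbered arrays of different groups correlated at -0.26 to 0.083 in their deviations. In a group of 2 arrays the deviations are mirror images, so these few values cannot show whether the numbers pair the arrays. Some values changed sign; of these only Fgf5 and Nes had passed the test. With the stricter filter Fgfr1 was at 0.022 with hairpin 2, Dusp4 at 0.10 between the hairpins, Fgf5 at -0.076 and Nes at -0.15 over both, and with no filter Klb was at 0.28. With the mean of probe sets, Fgf4 was at 0.0012 and Spry4 at -0.032 over both, Dusp6 at 0.011 with hairpin 1, and Dusp4 at -0.029 with hairpin 2 and 0.062 between the hairpins. With median polish, Spry4 was at -0.027 and Dusp4 at -0.051 over both, Dusp4 at -0.048 with hairpin 1 and -0.054 with hairpin 2 and at 0.0057 between them. With centred arrays, Spry4 was at -0.016 and Spred1 at -0.021 over both and Spred1 at -0.046 with hairpin 1; with quantile normalization Dusp4 was at -0.0031 with hairpin 1. Under the replicate block, crossed or not, Spred1 was at -0.028 and Dusp6 at 0.0037 with hairpin 1 and Fgf4 at -0.012 with hairpin 2. Without both arrays of the second component, Fgf4 was at -0.012 with hairpin 2 and Spred1 at 0.043 between the hairpins. On leaving out single arrays, Fgf4 ranged from -0.14 to 0.038 and Spred1 from -0.017 to 0.087 over both; Spred1 from -0.10 to 0.11, Dusp4 from -0.087 to 0.20 and Dusp6 from -0.10 to 0.0037 with hairpin 1; Fgf4 from -0.012 to 0.15, Fgfr1 from -0.088 to 0.041, Spry1 from -0.10 to 0.032 and Spred1 from -0.023 to 0.16 with hairpin 2; and Spred1 from -0.17 to 0.043 between the hairpins. Over all genes the number called ranged, across the alternatives, from 484 to 2840 over both hairpins (1292 as reported), from 266 to 2259 with hairpin 1 (964), from 63 to 1626 with hairpin 2 (619) and from 0 to 79 between the hairpins (17). Where leaving out an array left 1 in its group, that array was taken to vary like the other groups. The cause of these differences was not tested.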
